A study of Mus musculus with 22 samples.

Results

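A set of 215 loci was described whose mRNA was richer in heavy polysomes than in total liver RNA at every time sampled in mice given tunicamycin (Tm). The loci were chosen by measured values, namely an authors' mean count in polysomal RNA of at least 1.5-fold the mean count in total RNA at each of 0 h, 2 h and 4 h. Of 39897 loci in the table, 9383 reached a mean of 50 scaled counts over the 6 group means and had a ratio, so that the richly loaded loci made up 2.29% of those with a ratio. All mice were C57BL/6 males aged 5 weeks, and livers were taken at 0 h, 2 h or 4 h after an intraperitoneal injection of Tm at 0.1 mg/kg. The labels name tunicamycin for the 0 h mice too, whereas the methods call them controls and do not say whether they were injected, and the later groups were also culled at a later time of day, so that time after Tm and time of day cannot be told apart. Total RNA had 3 libraries at each time. Heavy polysomal RNA, from mRNAs carrying more than 3 ribosomes, had 3 libraries at 4 h. For 0 h and 2 h the table holds 3 sets of polysomal counts against 2 listed libraries, and only the authors' group means were used, without a test.

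Ribosomes that translate one mRNA at the same time form a polysome, and sedimentation through sucrose separates mRNAs by the number of ribosomes they carry. The number that an mRNA can hold depends on how often translation starts, how fast ribosomes elongate and how long the coding sequence is. Tm blocks N-linked glycosylation, and the misfolded proteins that then build up in the endoplasmic reticulum lead to phosphorylation of eIF2α, which lowers the rate at which most mRNAs start translation. The comparison therefore asks which mRNAs were over-represented among well translated mRNAs before and during the stress. The tables used here give loci by Cufflinks identifiers and do not pair them with gene names or positions, so the roles of single loci are not described and the liver markers could not be read. A ratio above 1 says that an mRNA took a larger part of the polysomal library than of the total library. It does not give the part of its molecules that was on polysomes, since each library was scaled to itself, and in whole liver fewer cells of a type and less RNA per cell cannot be told apart.

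The 12 libraries used one by one held from 9788578 to 17283500 counted fragments, the deepest being replicate 2 of total RNA at 0 h. The median richly loaded locus had 73 to 164 fragments in a total library and 144 to 201 in a polysomal library at 4 h, and none of the 215 was at 0 in any of them. For such a locus, counting error alone has an SD of 7.05% to 11.7% of the value.

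The loci were near 2-fold richer in polysomal than in total RNA at the median. These values chose the loci and are a description. For 0 h, 2 h and 4 h the median log2 ratios were 1.03, 0.83 and 0.83, that is 2.04-fold, 1.77-fold and 1.78-fold, against medians of -0.04, 0.00 and -0.00 over the 9383 loci. The middle of the set was narrow, with quartiles of 0.87 and 1.26 at 0 h, 0.71 and 1.05 at 2 h and 0.72 and 0.99 at 4 h. A ratio of 2-fold or more was reached by 116, 66 and 52 of them at the 3 times in turn, and by 25 at every time.

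**Figure D1:**
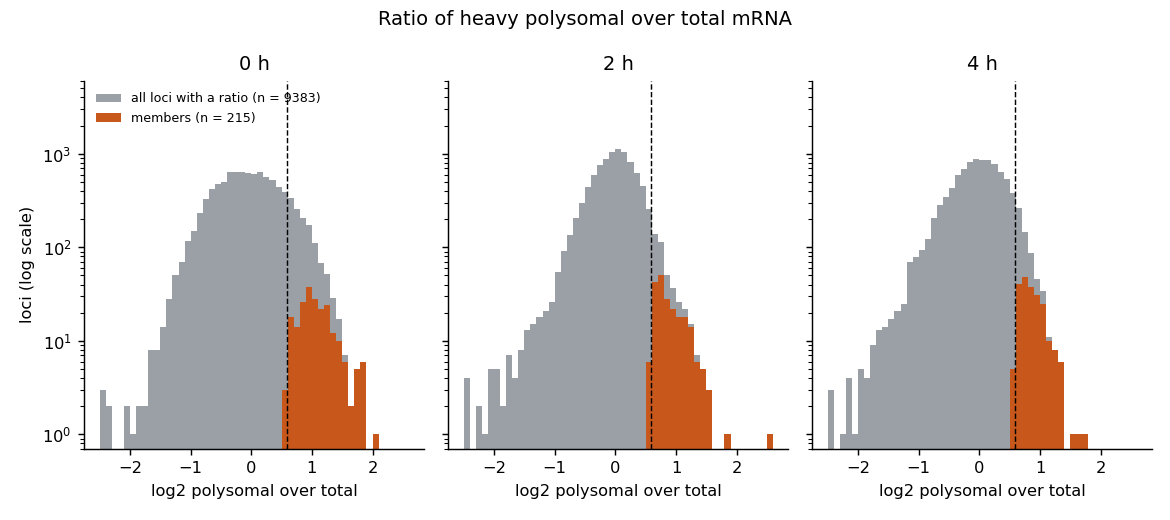
Histograms of the log2 ratio of polysomal over total mRNA (x axis, bins of width 0.1) at 0 h, 2 h and 4 h for all 9383 loci with a ratio (grey) and the 215 richly loaded loci (orange, members); the y axis counts loci on a log scale, the first bin also holds all lower ratios, and the dashed line marks 1.5-fold. The orange loci fill a part of the right tail at 0 h, where 1321 loci passed 1.5-fold, and a larger part at 2 h and 4 h, where 455 and 661 passed.

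Of the loci past 1.5-fold at 0 h, 16.3% were past it at both later times. There were 1321 such loci at 0 h (14.1% of those with a ratio), 455 at 2 h (4.85%) and 661 at 4 h (7.04%), and the 215 made up 47.3% of the loci at 2 h and 32.5% of those at 4 h. A further 801 loci passed at 0 h alone, 238 at 0 h and 4 h but not 2 h, 67 at 0 h and 2 h but not 4 h, and 56 at 2 h and 4 h but not 0 h. High loading at 2 h was thus mostly found together with high loading at another time, since 117 loci passed at 2 h alone, while 152 passed at 4 h alone.

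The locus with the highest of the smallest ratios had log2 ratios of 2.06, 2.56 and 1.72 at 0 h, 2 h and 4 h. It was a lowly expressed locus, at 2.00 FPKM in total RNA at 0 h, with authors' mean counts of 94.6, 52.4 and 38.2 in total RNA and 398.9, 314.6 and 128.2 in polysomal RNA at 0 h, 2 h and 4 h. In the libraries at 4 h it was at 3.56, 3.07 and 5.05 CPM in total RNA and at 16.3, 9.89 and 13.3 CPM in polysomal RNA, so that the lowest polysomal library was well above the highest total one. At the other end, the locus nearest above the threshold had log2 ratios of 0.58, 0.83 and 0.81, and it had 6.00, 4.81 and 5.15 CPM in total RNA and 9.25, 8.07 and 11.1 CPM in polysomal RNA at 4 h, which also did not overlap.

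The threshold cut through a dense part of the distribution. The smallest of the 3 ratios lay within 0.05 above the threshold of 0.585 in 40 of the 215 loci, and within 0.05 below it in 74 loci left out. The 3 loci just inside had smallest log2 ratios of 0.585, 0.585 and 0.586, and the 3 just outside had 0.585, 0.585 and 0.584. One of those just outside had 1.127, 0.585 and 0.721 at 0 h, 2 h and 4 h, which shows how little set the loci on the 2 sides of the line apart.

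Across the time course the ratio of these loci was most often highest before stress. The 0 h ratio was the highest in 137 of 215 (63.7%, against 37.1% of all loci with a ratio), the 2 h ratio in 46 (21.4%, against 35.6%) and the 4 h ratio in 32 (14.9%, against 27.3%). The ratio of a locus ranged over 0.33 on the log2 scale at the median, from 0.01 to 1.04. Compared with 0 h, the log2 ratio was lower at 2 h in 157 loci (73.0%, against 46.7% of all loci), with a median difference of -0.16, and lower at 4 h in 172 (80.0%, against 44.1%), with a median difference of -0.21. The median difference over all loci was 0.04 at 2 h and 0.06 at 4 h. Both differences use the same 0 h means, and a rule that asks for a high ratio at 0 h also picks loci whose 0 h ratio came out high, so nothing is read from their direction. All 1321 loci past 1.5-fold at 0 h had median differences of -0.52 and -0.38.

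Large shifts of the ratio were few. It was at least 1.5-fold lower than at 0 h in 12 loci at 2 h (5.58%, where 10.3% of all loci were) and in 13 at 4 h (6.05%, where 8.0% were), and at least 1.5-fold higher in 1 locus at 2 h (0.465%, where 9.22% were) and in 0 at 4 h (where 3.41% were). The rule holds every ratio above 1.5-fold, which leaves less room for a fall than other loci have.

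At 4 h the libraries of both fractions could be read one by one. All 3 polysomal libraries were above all 3 total libraries in 192 of the 215 loci (89.3%, where 23.8% of 9373 loci were), the 2 fractions overlapped in 23, and polysomal RNA was below total RNA without overlap in 0. The median difference in log2(CPM + 0.5) was 0.79, from 0.48 to 1.63 between loci, with a median standard error of 0.20 (n = 3 and 3, without pairing). Over all loci the median difference was 0.00 and the median standard error 0.13. A gap of 1.5-fold in every one of the 9 pairs of a polysomal and a total library was seen in 49 of the 215 loci, and the share over all loci was not counted. Since these libraries entered the rule, the differences carry no test.

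**Figure D2:**
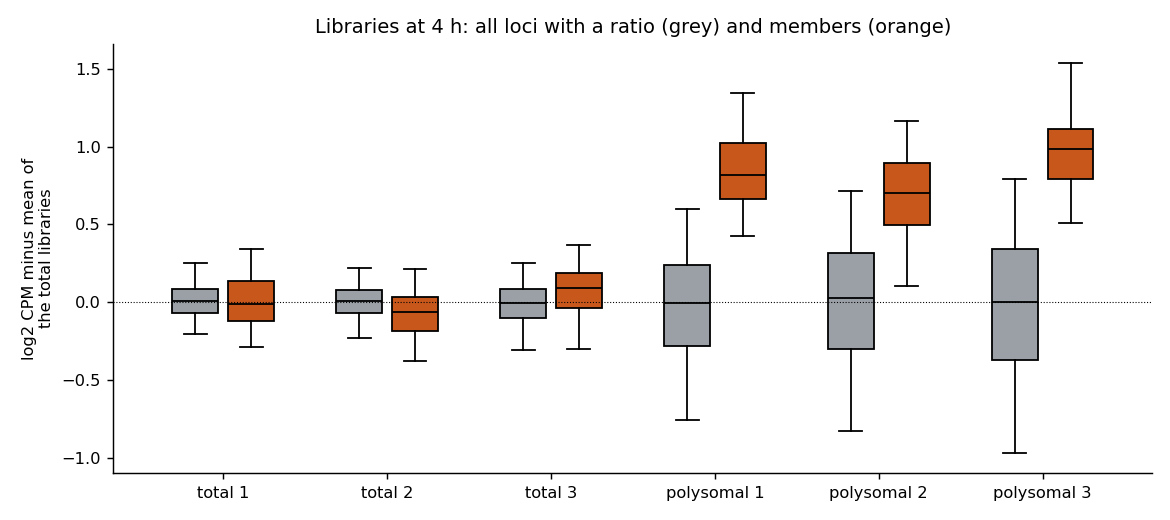
Log2 CPM in each library at 4 h minus the mean of the 3 total libraries (y axis) for all 9373 loci with a ratio and a value (grey) and the 215 richly loaded loci (orange); boxes give quartiles and median, whiskers the 5th and 95th percentiles. The orange medians are 0.82, 0.71 and 0.98 in the polysomal libraries and lie near 0 in the total libraries.

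The polysomal libraries at 4 h differed in the size of the excess. Polysomal replicate 3 held the highest of the 3 polysomal values in 120 of the 215 loci (55.8%, against 37.5% of all loci), and replicate 2 held the lowest in 121. On the log2 scale, polysomal replicate 2 differed from the other polysomal libraries by a median of -0.22, against 0.03 over all loci. The median difference from the mean of total RNA was 0.82 in polysomal replicate 1, 0.71 in replicate 2 and 0.98 in replicate 3. In total RNA at 4 h as well, replicate 3 was highest most often, in 109 loci (50.7%, against 34.0% of all loci), and replicate 2 lowest most often, in 95. Total replicate 2 differed from the other total libraries at 4 h by a median of -0.09, against 0.02 over all loci. By the methods, 3 animals were used per time point, so both fractions at 4 h would come from the same livers. The labels do not tie the fractions by number, and the unpaired standard error given above takes no account of shared livers. Between libraries of the same number the median differences were 0.83, 0.76 and 0.91, closer together than those from the mean of total RNA. The median standard error of these differences was 0.14. Polysomal RNA was above total RNA in each of these pairs in all 215 loci. The share over all loci was not counted, and the rule asked for a high 4 h ratio in these libraries. The median over the loci of a single pair of libraries went from 0.64, for polysomal replicate 2 over total replicate 3, to 1.02, for polysomal replicate 3 over total replicate 2.

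The loci were shorter than the median locus, as were loci past the cut at single times. Relative length was taken from the fragments counted per FPKM in each total library and set against the median locus with a ratio. The median was 0.682 (quartiles 0.436 and 1.15, range 0.0957 to 3.09), against 1.01 over all loci, and it lay between 0.649 and 0.728 in each of the 9 total libraries. Of the 215 loci, 148 (68.8%) were shorter than the median locus. With all loci cut into 10 equal bins by length, the 3 bins of shortest loci held 107 of them (49.8%) and the 3 bins of longest loci held 34 (15.8%), with 3 in the last bin. Of the loci past 1.5-fold at 0 h, 69.1% were in the 3 bins of shortest loci, as were 40.9% of those at 2 h and 56.3% of those at 4 h, with median relative lengths of 0.492, 0.807 and 0.615. The richly loaded loci were thus less short than the loci past the cut at 0 h, of which 9.14% were kept in the set in the shortest bin and 48.5% in the eighth. The 300 loci that were at least 1.5-fold poorer in polysomal than in total RNA at every time had a median relative length of 1.13, and they were spread more widely, with quartiles of 0.382 and 2.14.

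**Figure D3:**
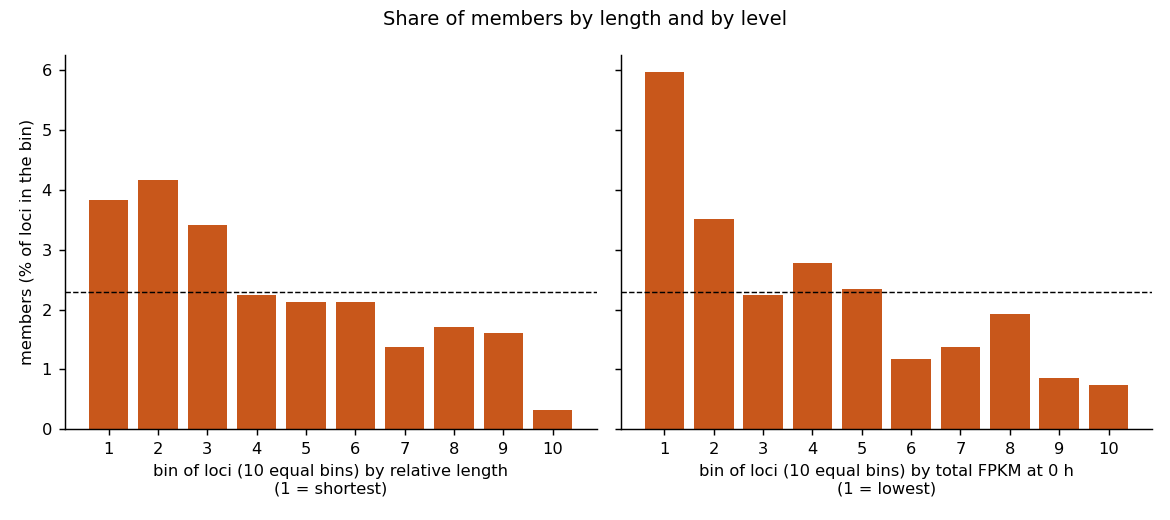
Percentage of loci that were richly loaded (y axis) in each of 10 equal bins of the 9383 loci ordered by relative length (left) and by total FPKM at 0 h (right); the dashed line is the share over all loci, 2.29%. The share goes from 3.83% in the bin of shortest loci to 0.32% in that of longest, and from 5.96% in the bin of lowest level to 0.746% in that of highest level.

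Most of the loci were weakly expressed. Their median level in total RNA at 0 h was 4.68 FPKM (quartiles 2.02 and 10.1, range 0.745 to 1470.5), against 9.45 FPKM over all loci and 14.0 FPKM in the 300 poorly loaded loci. The level was below the median of all loci in 157 of 215 (73.0%), at or above 10 FPKM in 56 (26.0%, against 48.4% of all loci) and at or above 100 FPKM in 7 (3.26%, against 8.21%). Of 10 equal bins by level, the lowest held 56 of the loci and the highest 7, where an even spread would give 21.5 in each. Replicate by replicate, the median at 0 h was 4.10, 4.69 and 4.10 FPKM. The total mean at 0 h was a denominator of the ratios, and the minimum mean of 50 also took in the polysomal means. Loci low in total RNA could thus enter through their polysomal counts, and 47 of the 215 had a total mean under 50 at 0 h. A low total level therefore follows in part from the rule. It also went with the minimum mean of 50 counts. With a minimum mean of 200, 64 of 5882 loci passed the rule (1.09%) and their median was 20.5 FPKM against 18.2 over the 5882, with 46.9% of them below that median, while the median relative length was 0.501. In counts, which are not divided by length, the 64 loci were still lower, with a median scaled total count of 291.2 at 0 h against 493.5. The minimum of 200 also took in polysomal counts, and total counts were denominators of the ratios. A lower total count thus follows in part from the rule, and nothing is read from it. Short loci were thus in excess with either minimum, while a lower level per length was seen with the lower minimum alone.

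Level and length were not independent measures, since length was taken from fragments per FPKM and a minimum count asks more FPKM of a short locus. How much of their relation came from this was not tested. The 148 loci shorter than the median locus had a median level of 6.98 FPKM at 0 h, and the 67 longer ones 1.71 FPKM. All loci with a ratio in the same length classes had medians of 17.1 and 5.25 FPKM, so the set lay below both, with the limit on total levels given above. The shorter loci had median log2 ratios of 1.05, 0.80 and 0.86 at 0 h, 2 h and 4 h, and the longer ones 0.95, 0.89 and 0.78. From 0 h to 2 h the ratio of the shorter loci differed by -0.23 at the median, beside -0.20 for all loci of that class, whereas that of the longer loci differed by 0.00 beside 0.20. From 0 h to 4 h the median differences were -0.23 beside -0.13 for the shorter loci and -0.14 beside 0.16 for the longer. The shortest of the loci, at 0.0957 of the median length, had log2 ratios of 1.23, 0.71 and 0.83, and the longest, at 3.09, had 0.89, 0.91 and 1.04. Across the 215 loci, Spearman's rho between length and ratio was -0.261, 0.161 and -0.232 at 0 h, 2 h and 4 h. Across all loci it was -0.469, -0.125 and -0.205. These are descriptions across loci measured in the same libraries.

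One locus carried a large part of the signal. It was at 1404.8, 1483.3 and 1523.4 FPKM in the total libraries at 0 h, was short (0.22 of the median length) and held 20.4% of the fragments on the set at 0 h. Its log2 ratios at 0 h, 2 h and 4 h were 1.30, 0.61 and 0.81. In the libraries at 4 h it was at 593.3, 439.9 and 1010.1 CPM in total RNA and at 995.0, 747.4 and 1865.4 CPM in polysomal RNA, so that polysomal replicates 1 and 2 lay below total replicate 3 and the fractions overlapped. The 10 most abundant loci held 43.7% of the fragments on the set.

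Over all fragments counted, the set was a small part of liver mRNA. It took 0.44% ± 0.0497 of total RNA at 0 h (SD, n = 3), 0.411% ± 0.0141 at 2 h and 0.377% ± 0.0272 at 4 h. In polysomal RNA at 4 h it took 0.698% ± 0.126, with 0.675%, 0.585% and 0.835% in the 3 libraries, each above every total library at 4 h (0.364%, 0.359% and 0.408%). Without the most abundant locus the shares at 4 h were 0.307%, 0.316% and 0.315% in total RNA and 0.577%, 0.518% and 0.651% in polysomal RNA, again without overlap. The rule asked for a high ratio in these same libraries, so a larger polysomal share at 4 h follows from the choice and is a description.

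The loci were variable between livers. The median coefficients of variation over 3 total libraries were 22.4%, 19.9% and 13.8% at 0 h, 2 h and 4 h. All loci with a ratio had 9.29%, 11.4% and 8.78%. The 2631 other loci whose mean count lay between the quartiles of the set had 12.3%, 13.9% and 11.2%, and the 64 richly loaded loci that passed a minimum mean of 200 had 18.2% at 0 h beside 7.91% for all loci with that minimum. Single libraries stood apart. At 0 h, replicate 2, the deepest library, was highest in 127 loci (59.1%, against 34.2% of all loci), at a median of 0.24 above the other libraries on the log2 scale. At 2 h, replicate 2 was lowest in 134 loci, at a median of -0.22 against -0.01 over all loci. Many of the loci were thus high or low together in 1 library of a group, and what the livers differed in was not tested. The total libraries also entered the rule, which can let in loci with widely spread counts, and this was not tested either.

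Whether the abundance of these mRNAs changed was asked in total RNA alone, a contrast over time that the rule did not use as such. The total means at each time were denominators of the ratios, so the rule selects on part of the counts tested here. The cut was passed by fewer loci at 4 h than at 0 h, which can let in loci whose total mRNA came out low at 4 h, and the values of the set below are read with that limit. All 215 passed the filter on low counts. edgeR's quasi-likelihood test over 12606 loci, with Benjamini-Hochberg adjustment, called a locus at an adjusted p under 0.05 and at least a 2-fold change.

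At 2 h none of the set was called. edgeR called 0 of 215 at 2 h, where 0.397% of all loci tested were called, DESeq2 called 0 as well, and 17 of the 215 (7.91%, where 11.8% of all loci were) had an unadjusted p under 0.05. The median log2 fold change was -0.02, against 0.00 over all loci. By adjusted p alone, 1 locus passed (0.465%, where 0.785% of all loci did). It was at 15.3, 14.5 and 13.7 CPM at 0 h and at 9.73, 8.73 and 7.99 CPM at 2 h, without overlap, with a log2 fold change of -0.72 (SE 0.13, edgeR adjusted p = 0.0348). By 4 h it was at 7.44, 6.79 and 7.07 CPM, and its log2 fold change from 0 h was -1.03 (edgeR adjusted p = 0.000151). It was singled out after its values were seen. Without replicate 2 of total RNA at 0 h, 2 loci of the set were called at 2 h, both higher, where 0.234% of all loci were called higher.

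At 4 h, 15 loci were called (6.98%, where 8.55% of all loci tested were), of which 3 rose (1.4%, against 5.08%) and 12 fell (5.58%, against 3.47%). Of all 9373 loci with a ratio that were tested, 5.01% rose and 2.36% fell. By adjusted p with no minimum fold, 6 rose (2.79%, against 17.8%) and 32 fell (14.9%, against 12.7%). The median log2 fold change was -0.27, against -0.02 over all loci tested, and it was below 0 in 162 of 215 loci (75.3%, against 52.0%). Both length classes were on that side, with medians of -0.24 in the shorter and -0.34 in the longer loci, as were the 64 loci that kept to the minimum mean of 200, with -0.23. The shift differed with the choice of loci. The 455 loci past 1.5-fold at 2 h include the 215. Their 2 h ratio did not use the 0 h or the 4 h total mean, although the minimum mean count did. These 455 loci had a median of -0.16 at 4 h with 64.2% below 0, and 13 of them rose (2.86%) and 21 fell (4.62%). Among these, the 240 that missed the cut at 0 h or 4 h had a median of -0.04, with 10 rises and 9 falls. Missing that cut depends on the total means at 0 h and 4 h, so nothing is read from this median. The 300 poorly loaded loci, of which 299 were tested, had a median of -0.00, and 15 of them rose and 7 fell.

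**Figure D4:**
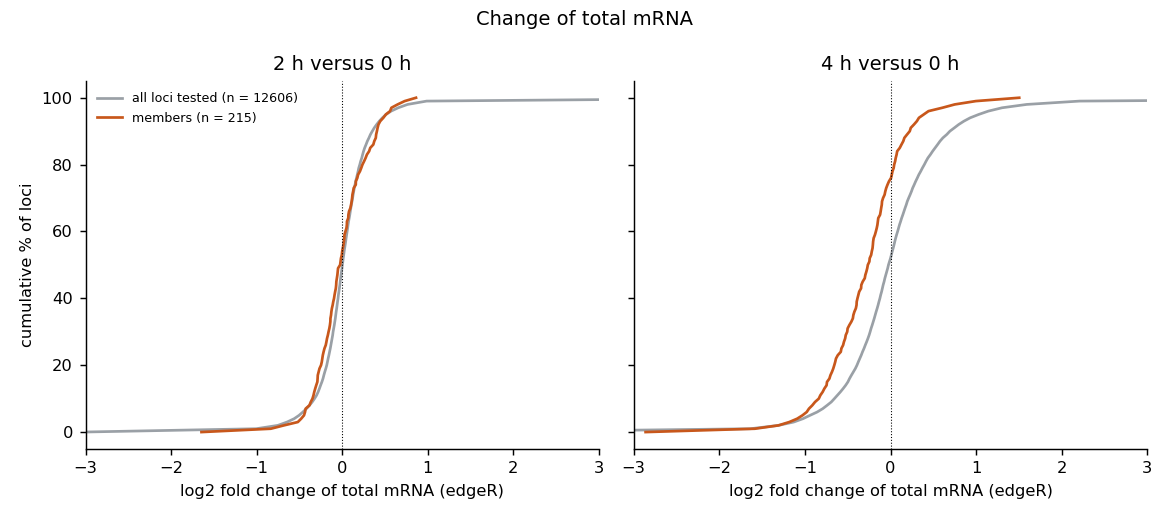
Cumulative percentage of loci (y axis) by log2 fold change of total mRNA from edgeR (x axis) at 2 h (left) and 4 h (right) against 0 h, for all 12606 loci tested (grey) and the 215 richly loaded loci (orange). The curves lie together at 2 h, with medians of 0.00 and -0.02, and at 4 h the orange curve is to the left, with a median of -0.27 against -0.02.

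The shift at 4 h was smaller without one control liver. Replicate 2 of total RNA at 0 h, which was the highest for most of the loci, was left out. The median log2 fold change of the set at 4 h was then -0.16, against -0.02 over all loci tested, and 146 loci were below 0. Of the 215 loci 11 were called, 3 higher and 8 lower, where 4.99% of all loci were called higher and 3.33% lower. The share of falls in the set was thus closer to that over all loci than with every library kept. Under upper-quartile normalization the median of all loci moved to -0.15 and that of the set to -0.39.

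The 12 loci that fell had a median log2 fold change of -1.18, from -2.86 to -1.03. They were of a median relative length of 1.15 and a median level of 2.26 FPKM at 0 h, at most 7.39 FPKM. The 3 that rose had log2 fold changes of 1.01 to 1.5, relative lengths of 0.321 to 0.977 and levels of 3.67 to 7.62 FPKM. The 0 h and 4 h libraries overlapped in none of the 15. The calls were made on these same libraries, and the share over all called loci was not counted, so nothing is read from this. The authors' polysomal means moved to the same side in all 15, by -2.36 to -0.77 on the log2 scale for the loci that fell and by 0.74 to 1.21 for those that rose. The rule fixes part of this, since polysomal and total means had to stay at a high ratio.

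XLOC_018807 rose the most. It was at 9.85, 4.22 and 4.96 CPM in total RNA at 0 h, at 4.65, 7.87 and 2.59 CPM at 2 h and at 19.2, 16.7 and 17.3 CPM at 4 h. The values at 4 h were above all others, and those at 0 h and 2 h overlapped. The log2 fold change at 4 h was 1.5 (SE 0.33, edgeR adjusted p = 0.00495). In the 4 h libraries its polysomal values were 30.3, 31.2 and 32.6 CPM, and its log2 ratios at 0 h, 2 h and 4 h were 1.05, 0.89 and 0.79.

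XLOC_031270 rose by a log2 fold change of 1.16 at 4 h (SE 0.13, edgeR adjusted p = 6.08e-05). It was at 12.6, 12.4 and 12.0 CPM at 0 h, at 16.7, 13.5 and 17.5 CPM at 2 h and at 23.9, 29.0 and 29.9 CPM at 4 h, so that no group overlapped another. At 2 h the log2 fold change was 0.36 (SE 0.14, edgeR adjusted p = 0.305) and did not pass the test. Its log2 ratio was 1.03, 0.78 and 0.65 at 0 h, 2 h and 4 h.

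XLOC_034729 fell the most. Its total mRNA was at 18.6, 7.23 and 13.1 CPM at 0 h, at 16.0, 9.16 and 26.9 CPM at 2 h and at 1.54, 1.96 and 1.75 CPM at 4 h. The libraries at 0 h and 2 h were widely spread and overlapped, and those at 4 h were close together and below all of them. The log2 fold change at 4 h was -2.86 (SE 0.45, edgeR adjusted p = 0.000587). In the 4 h libraries its polysomal values were 6.52, 3.30 and 4.15 CPM, and its log2 ratios at 0 h, 2 h and 4 h were 0.87, 0.89 and 1.33.

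XLOC_014919, one of the longer loci at 2.34 of the median length, was at 14.6, 12.7 and 38.6 CPM at 0 h, at 18.4, 9.81 and 40.5 CPM at 2 h and at 7.44, 4.42 and 5.69 CPM at 4 h. Replicate 3 was far above the other two in both the 0 h and the 2 h group, and the 4 h values were below all others. The log2 fold change at 4 h was -1.89 (SE 0.52, edgeR adjusted p = 0.017). The call was lost without replicate 3 at 0 h (-1.22, edgeR adjusted p = 0.0753) and without replicate 2 at 4 h (-1.71, edgeR adjusted p = 0.0655).

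**Figure D5:**
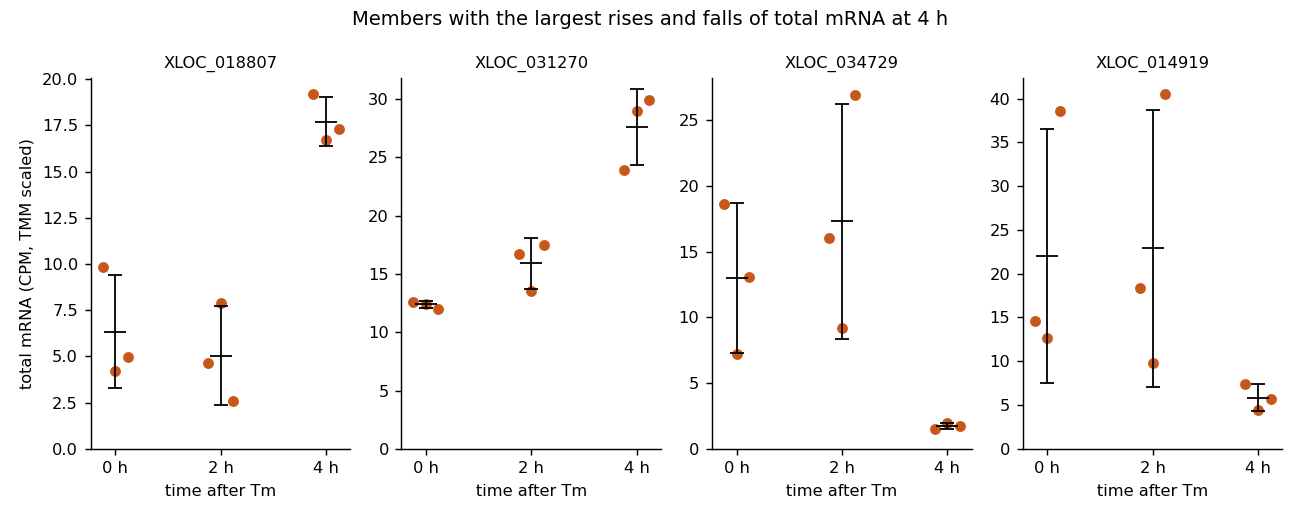
Total mRNA in CPM (y axis, from 0) at 0 h, 2 h and 4 h for the 2 richly loaded loci that rose the most and the 2 that fell the most; points are libraries in replicate order from left to right, and the bars are the mean and SD of 3. The 4 h points lie above all others for XLOC_018807 and XLOC_031270 and below all others for XLOC_034729 and XLOC_014919.

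In the authors' means, the polysomal level of the set was lower at 4 h than at 0 h by more than the total level. The median log2 difference from 0 h to 4 h was -0.25 in total and -0.47 in polysomal RNA, against 0.02 and 0.05 over all loci with a ratio. Polysomal means were at least 1.5-fold lower at 4 h in 84 of 215 loci (39.1%, where 14.6% of all loci were) and higher in 4 (1.86%, where 17.6% were). Total means were at least 1.5-fold lower at 4 h in 51 (23.7%, where 8.03% were) and higher in 7 (3.26%, where 12.9% were). At 2 h the differences were small. Polysomal means were at least 1.5-fold lower in 19 loci (8.84%, where 11.1% were) and higher in 1 (0.465%, where 12.9% were), and total means lower in 5 (2.33%, where 1.28% were) and higher in 9 (4.19%, where 2.46% were). The median scaled count of the set went from 91.8 at 0 h to 86.8 at 2 h and 75.3 at 4 h in total RNA, and from 182.1 to 159.8 and 133.6 in polysomal RNA. All these means entered the rule, so the counts are a description.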

How the data were processed

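Liver RNA from 22 listed libraries was sequenced as stranded poly(A) libraries. The authors aligned reads with TopHat2 2.0.13 to a GRCm38 transcriptome and used Cuffdiff of Cufflinks 2.2.1 with bias and multi-read correction; the annotation release is not given in the sources used here. They deposited raw fragment counts, scaled fragments (a signal) and FPKM values per library, and group means of scaled counts (a signal). Of 81 sets of library values, 69 belong to groups not used here or not tied to a listed library; 21 of 27 group means, and 12 means of a second table that numbers loci separately, were not used either. Columns of the authors' own tests, with fold changes and p-values, were not used.

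Loci with a failed or skipped estimate in a group (39) got no ratio, and those with one in any of the 12 libraries (54) entered no fit. Ratios were log2((polysomal mean + 1)/(total mean + 1)) for loci whose mean over the 6 groups reached 50; the threshold was 1.5-fold. Total counts of 9 libraries were fitted in edgeR 4.0.16 (R 4.3.3; TMM, filterByExpr, quasi-likelihood test), checked on simulated data. Replicates come from separate livers by the methods; p-values measure the spread between 3 libraries. Alternatives were DESeq2 1.42.0, other scalings and filters, other thresholds, a replicate block and single libraries left out; values were summarised with Python 3.11.15. Loci were named by a rule: among loci called at 4 h, counted at 50 fragments or more on average and without overlap, the 2 largest rises and the 2 largest falls; others were described by rank without an identifier. The loci, lists and rules were chosen with earlier results of these data known.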

Additional observations from a re-analysis of the deposited data

How the results depend on the processing

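The number of richly loaded loci depended on its thresholds, being 1139 at 1.2-fold, 25 at 2-fold, 422 with a minimum mean of 10 and 64 with a minimum mean of 200, and 184 to 255 with a total or polysomal library left out. At 2-fold, at a minimum mean of 200 and at a pseudocount of 8, the median relative length was 0.442, 0.501 and 0.657, and the share shorter than the median locus 88.0%, 82.8% and 71.2%. At 2-fold and at a minimum mean of 200, the median level was 6.71 and 20.5 FPKM and the share of fragments 0.0411% and 0.335%; leaving out a 0 h library gave 4.12 to 4.64 FPKM and 0.412% to 0.459%. The median change of the ratio at 4 h was -0.34 at 2-fold and -0.29 to -0.15 with a library left out, and at 2 h it was -0.26 to -0.10. The number of loci without overlap at 4 h was 192 to 213 with a library left out. Calls in total mRNA at 2 h were 2 with all loci of at least 1 count, both lower, where 0.6% of all loci were called. There was 1 with no minimum fold, where 0.785% of all loci passed. With a library left out there were 0 to 2, where 0.265% to 0.482% of all loci were called. Calls at 4 h were 38 with no minimum fold, where 17.8% of all loci rose and 12.7% fell. They were 10 to 19 with a library left out, where 7.58% to 8.69% of all loci were called. The other fits gave 15 to 19, where 5.87% to 8.87% of all loci were called. Why these values moved was not tested, beyond the loci or libraries that each alternative leaves out. With counts near 90 per locus, changes of low loci are measured with little precision. Other alternatives were chosen after seeing the data. Loci taken by the 2 h ratio alone had a median total log2 fold change of -0.16 at 4 h, those by the 4 h ratio alone -0.00 at 2 h, and libraries of the same number were set against each other at 4 h.

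Deviations of same-numbered total libraries from their group means correlated by -0.0188 to 0.359 in 9 pairs, and those of other numbers by -0.296 to 0.213 in 18. The ranges overlap, with the same-numbered one lying higher, and whether the replicate number marks anything shared was not tested. With the replicate number as a block, 0 loci of the set were called at 2 h and 16 at 4 h, where 0.405% and 8.5% of all loci were called.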
